A study of Homo sapiens with 4 samples.

Results

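The regions described here are 7 windows of the genome around SPARC, FN1, TNC, THBS1, COL1A2, LOX and VIM, genes of the extracellular matrix and of the mesenchymal cell state, in a ChIP-seq study of the transcription factor c-Jun. The cells were BT549, a human cell line long established from a triple-negative breast cancer, serum-starved overnight per the series text. Of the 2 c-Jun libraries, 1 came from cells without TNFalpha, an inflammatory cytokine, and 1 from cells with it, for 6 hours by the sample labels and 3 hours by the series text. Each c-Jun library gave 2 peak lists, 1 called against normal rabbit IgG and 1 against input chromatin, and both of these control libraries came from TNFalpha-treated cells, also for the peaks of the cells without TNFalpha.

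A peak belonged to a window if its centre lay inside it. On hg19, the SPARC window ran on chromosome 5 from 150980000 to 151180000, the FN1 window on chromosome 2 from 216150000 to 216450000, and the TNC window on chromosome 9 from 117700000 to 118000000. The THBS1 window ran on chromosome 15 from 39750000 to 40000000, the COL1A2 window on chromosome 7 from 93950000 to 94150000, the LOX window on chromosome 5 from 121300000 to 121550000, and the VIM window on chromosome 10 from 17200000 to 17350000. Merging overlapping peaks of the 4 lists gave 26 sites in the windows, of 12091 sites in all. The members were chosen by gene function with the peak calls and scores of these same lists known, so the presence of peaks in a window is a description and not a finding.

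The extracellular matrix is the mesh of secreted proteins outside cells, and mesenchymal cells such as fibroblasts make more of it than epithelial cells do. BT549 is known as a line with a mesenchymal appearance. FN1 encodes fibronectin and COL1A2 a chain of type I collagen, which are fibre-forming matrix proteins. SPARC, TNC (tenascin-C) and THBS1 (thrombospondin-1) encode matricellular proteins, which are secreted into the matrix and modulate how cells adhere to it, and LOX encodes lysyl oxidase, which crosslinks collagen and elastin. VIM encodes vimentin, the intermediate filament protein of mesenchymal cells. c-Jun is a subunit of the dimeric factor AP-1, which binds TGANTCA with Fos partners and TGACGTCA with partners of the ATF family.

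The 250 bases before the annotated start of FN1 and of SPARC are printed from RefSeq. FN1 is shown because it was the 1 member whose promoter held either motif, and SPARC because its 2 peaks were called against both controls without TNFalpha and in neither list with it. Capitals mark a TGACGTCA match. The FN1 sequence is chr2:215436069-215436318 and the SPARC sequence chr5:151686916-151687165, both on the minus strand of GRCh38.p14. This build is not that of the peaks, so no peak was placed against a promoter.
FN1: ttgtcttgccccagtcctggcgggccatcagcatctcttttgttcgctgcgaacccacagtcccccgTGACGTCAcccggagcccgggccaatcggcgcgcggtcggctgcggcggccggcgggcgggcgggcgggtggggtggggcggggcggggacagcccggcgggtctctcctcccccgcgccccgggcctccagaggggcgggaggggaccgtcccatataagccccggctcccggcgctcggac
SPARC: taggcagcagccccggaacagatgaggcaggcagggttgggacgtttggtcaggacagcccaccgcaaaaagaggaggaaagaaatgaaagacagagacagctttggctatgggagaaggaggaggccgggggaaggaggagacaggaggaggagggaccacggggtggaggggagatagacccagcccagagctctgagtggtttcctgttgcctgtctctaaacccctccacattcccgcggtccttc
RefSeq promoters were found for 6 of the 7 members, in 8 entries because LOX had several starts. The FN1 match began 183 bases before the start, and TGACGTCA was present in 1.65% of all 35116 promoters of the same 250 bases. TGANTCA, present in 6.57% of them, was found in 0 of the 8 entries. Both motifs read alike on either strand, so 1 search covers both, and the FN1 match overlaps no TGANTCA. A missing match says only that these letters are not in this stretch.

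Peaks called against both controls, here both-control peaks, numbered 9 in the windows without TNFalpha and 12 with it. A both-control peak counted as shared if any peak of the other library, in either list, overlapped it by at least 1 bp. Without TNFalpha, 2 of the 9 were absent from the other library (22.2%, 95% Wilson interval 6.32 to 54.7%), and 20.1% of all 3086 both-control peaks of that library were. With TNFalpha, 4 of the 12 were absent from the other library (33.3%, 13.8 to 60.9%), against 35.9% of all 4159. Both shares in the windows were thus near those of the whole lists. The lists of the 2 libraries differ in length, so these shares are not compared between the libraries. With the 3323 highest scoring IgG-controlled peaks of each library, 42.2% without TNFalpha and 42.7% with it were absent from the other set. In the windows this was 4 of 11 in each library. When only peaks scoring at or above the median of their IgG-controlled list were kept, 5 without and 6 with TNFalpha remained in the windows. The shares were then 40.0% without TNFalpha (2 of 5, both of SPARC), with 8.59% over all such peaks, and 16.7% with TNFalpha (1 of 6), with 25.2% over all. The calls and scores of the 2 SPARC peaks were known when the members were chosen, so the 40.0% is a description, and enrichment was not tested. The windows differed among themselves: both peaks found only without TNFalpha lay in the SPARC window, and the 4 found only with TNFalpha lay in the LOX window (2), the FN1 window (1) and the TNC window (1). Each condition had 1 library, so no difference had a replicate check, no p-value was computed, and intervals cover counting error only. The sequencing depth of the libraries is unknown.

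**Figure D1:**
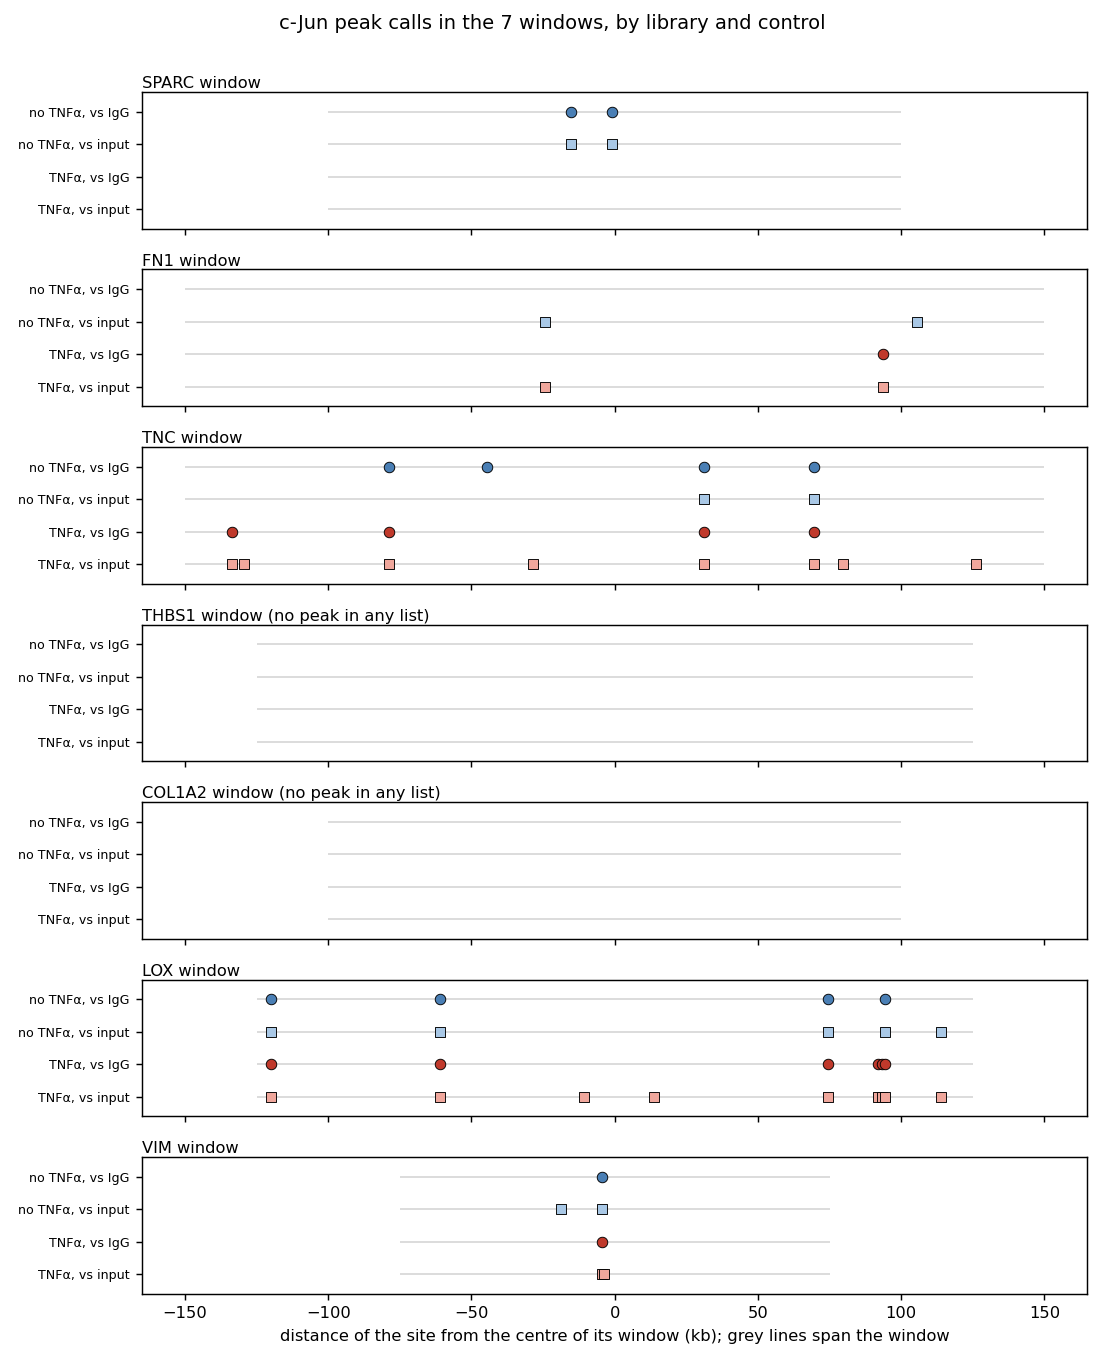
Peak calls in each window, plotted by distance from the window's centre in kb, with a row for each library and control and a marker for each called site. The SPARC window has peaks in the rows without TNFalpha only, the LOX window has a run of 3 neighbouring peaks at its right side in the rows with TNFalpha, and the THBS1 and COL1A2 windows are empty.

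The SPARC window held 2 c-Jun peaks without TNFalpha and 0 with it, against IgG and against input alike. The stronger peak lay on chromosome 5 from 151078657 to 151079126 (470 bp). Its score, a value given to each peak by the authors' peak caller, was 184 against IgG and 161 against input. The scale of the score is not known, so scores from different lists are printed side by side and not compared. The peak ranked 262 among the 3323 IgG-controlled peaks without TNFalpha, with 92.1% of that list scoring lower. The weaker peak, from 151064446 to 151064865 (420 bp), had scores of 101 and 119 and ranked 1045 in the same list. The 2 peaks were 13.8 kb apart.

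With TNFalpha, no peak of either list was called over the 803 kb of chromosome 5 between positions 150473468 and 151276026. Without TNFalpha, the 2 SPARC peaks were the only ones there, apart from a peak across its upper end. That peak, from 151275653 to 151276053, belonged to a site called in both conditions. The region was thus sparse in both, and its length and the distances below do not by themselves show a loss with TNFalpha. The nearest peak with TNFalpha was 197 kb from the stronger SPARC peak and 211 kb from the weaker one. Of the 3086 both-control peaks without TNFalpha, 154 lay at least as far as the stronger peak from any peak with TNFalpha (4.99%). A shared peak lies at distance 0, so all 154 were among the 620 peaks absent from the other library. The 4.99% therefore largely restates that absence, and such a distance was not rare among those 620. Among both-control peaks without TNFalpha, high scoring ones were seldom absent from the other library. At or above the median of the IgG-controlled list, 8.59% of those without TNFalpha and 25.2% of those with it were absent. The lists of the 2 libraries differ in length, so these shares do not show a difference between the conditions. Of the 262 both-control peaks without TNFalpha scoring at least as high as the stronger SPARC peak, 3 were absent from the other library, this peak included (1.15%, 95% Wilson interval 0.390 to 3.31%). For the weaker peak the numbers were 51 of 1042 (4.89%, 3.74 to 6.38%). The shares for the 2 SPARC peaks describe their place in their own list, which was known when the members were chosen. Each set was cut at the score of the SPARC peak itself and counts that peak. The intervals therefore do not measure how rare such an absence is. Protein-coding neighbours of SPARC in RefSeq (GRCh38.p14) were FAT2 and ATOX1, and the peaks could not be assigned to any of the 3 genes, since gene positions on hg19 were not analysed here.

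Among the fibre-forming proteins, the FN1 window held 1 both-control peak with TNFalpha and 0 without it. The peak lay on chromosome 2 from 216393269 to 216393664 (396 bp), and its scores were 110.1 (IgG) and 227 (input). It ranked 1461 of 4439 in the IgG-controlled list and 1111 of 8040 in the input-controlled list, so its place was in the upper part of both. Among the 1461 both-control peaks with TNFalpha scoring at least as high, 294 were found only with TNFalpha, this peak included (20.1%). The nearest peak without TNFalpha was a weak one called against input alone, from 216405431 to 216405655 with a score of 63.0, at a distance of 11.8 kb. A further FN1 site, from 216275625 to 216275943, was called in both libraries against input and in neither against IgG. Its scores were 118 without TNFalpha and 114 with it, and 72.4% and 60.3% of the respective lists scored lower. Of the 3 FN1 sites, 1 was therefore called against IgG, and in 1 library. That site lay 93.5 kb from the window's centre. Sites are named after their window, and those of FN1, TNC and VIM could not be assigned to a gene either. RefSeq places ATIC and MREG next to FN1, TNFSF8 and PAPPA next to TNC, and TRDMT1 and ST8SIA6 next to VIM.

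The COL1A2 window held 0 peaks in all 4 lists. The nearest peak below it was centred 6.57 kb outside its edge, on chromosome 7 from 93943259 to 93943606, and was called in 1 list, without TNFalpha against input, with a score of 98.2. The nearest above it was centred 100.2 kb outside. A window without a peak shows that no site passed the authors' threshold there, not that c-Jun was absent.

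The THBS1 window was also empty in all 4 lists. The nearest peaks lay on either side of it on chromosome 15. One, from 39655125 to 39655706, was centred 94.6 kb below the window and was called in all 4 lists. The other, from 40039556 to 40039839, was centred 39.7 kb above it and was found only with TNFalpha, with a score of 66.0 against IgG. THBS1 and COL1A2 were thus without a c-Jun peak inside the windows in either condition.

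The TNC window held 9 sites, of which 3 were called in both libraries, 5 only with TNFalpha and 1 only without it. Most were weak or called in few lists, and 5 of the 9 were called in 1 list. The site with the highest IgG-controlled score in each library was called in all 4 lists. Its peak without TNFalpha ran on chromosome 9 from 117880995 to 117881485, with scores of 110.05 against IgG and 109 against input. Its peak with TNFalpha ran from 117881145 to 117881507, with scores of 132 and 94.99.

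The TNC site at 117919467 to 117919899 was the other called in all 4 lists, with scores from 50.6 to 75.5, and with TNFalpha against input only 1.32% of the list scored lower than its 50.6. Another site was called in 3 lists. Its peak with TNFalpha, from 117770862 to 117771286, scored 75.3 against IgG and 67.0 against input. Its peak without TNFalpha scored 50.8 against IgG, with 1.56% of the list scoring lower, and was not called against input, so this site counted as shared through 1 call near the lowest score of its list.

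The 1 TNC both-control peak found only with TNFalpha lay from 117716226 to 117716545 (320 bp), with scores of 71.5 against IgG and 95.3 against input. In the IgG-controlled list, 36.3% of peaks scored lower, which puts it in the weaker part of that list. It lay 54.3 kb from the nearest peak without TNFalpha. Of the remaining 5 sites, 4 were called with TNFalpha against input alone, with scores from 60.9 to 76.7. The other, from 117805130 to 117805559, was called without TNFalpha against IgG alone, with a score of 50.8.

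The LOX window held the most both-control peaks, 4 without TNFalpha and 6 with it, in 250 kb. This was 16 per Mb without TNFalpha and 24 with it, and chromosome 5 as a whole held 1.504 and 2.05 both-control peaks per Mb. LOX was the densest window in each library, and the THBS1 and COL1A2 windows held 0 per Mb in both. Over all windows the densities were 5.45 per Mb without TNFalpha and 7.27 with it, and over the genome 1.00 and 1.35. The peak calls were known when the windows were chosen, so these densities are a description, and enrichment was not tested. All 4 peaks without TNFalpha overlapped a peak with TNFalpha. The strongest LOX site was called in all 4 lists. Without TNFalpha its peak ran on chromosome 5 from 121304810 to 121305362 and scored 124 against IgG and 220 against input. With TNFalpha it ran from 121304809 to 121305298 and scored 230.5 and 444, and 93.5% and 97.3% of the respective lists scored lower. The next site ran from 121363811 to 121364265 without TNFalpha (scores 66.1 against IgG and 119 against input) and from 121363623 to 121364326 with it (135.5 and 295). The site beyond it ran from 121499242 to 121499588 without TNFalpha (69.1 and 134) and from 121499180 to 121499908 with it (149 and 289). In the IgG-controlled list without TNFalpha, 33.2% and 38.5% of peaks scored lower than these 2 sites, and in that with TNFalpha 77.2% and 81.5% did.

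Both LOX both-control peaks found only with TNFalpha stood beside a shared site at the upper end of the window. The shared peak ran from 121519174 to 121519419 without TNFalpha and from 121519101 to 121519407 with it. Its scores were 71.0 against IgG and 97.2 against input without TNFalpha, and 70.6 and 80.6 with it. With TNFalpha, a further peak from 121518240 to 121518594 ended 0.506 kb before it, with scores of 72.7 against IgG and 61.2 against input. Another from 121516772 to 121517256 had scores of 78.5 and 179. All 3 peaks with TNFalpha lay within 2.64 kb, where the library without TNFalpha had 1 peak. Against IgG, their scores with TNFalpha were from 70.6 to 78.5, below the median of that list (86.2). Against input, the peak from 121516772 scored above the median of its list (94.6), with 79.2% of the list lower. Those from 121518240 and 121519101 scored below that median.

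The 3 LOX sites called against input alone had low scores. One from 121413934 to 121414308 and one from 121438434 to 121438856 were found only with TNFalpha, with scores of 57.7 and 55.3. Another, from 121538733 to 121539028, was called in both libraries, with scores of 68.0 without TNFalpha and 66.1 with it. Just outside the upper edge, at 4.68 kb, lay a peak from 121554475 to 121554882 that was found only with TNFalpha, with a score of 88.3 against IgG. RefSeq places SRFBP1 and ZNF474 next to LOX, and the peaks could not be assigned to any of the 3 genes.

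The VIM window held 1 both-control peak in each library, at the same place, and the peak called with TNFalpha was the wider. Without TNFalpha it ran on chromosome 10 from 17270337 to 17270762 (426 bp), with scores of 80.3 against IgG and 121 against input. With TNFalpha it ran from 17270065 to 17270776 (712 bp), with scores of 168 and 280.4. The part of the list scoring lower was 52.8% without TNFalpha and 86.1% with it against IgG, and 73.3% and 91.0% against input. A second peak with TNFalpha, called against input alone with a score of 61.2, began 0.335 kb beyond it, from 17271112 to 17271499. A peak from 17256043 to 17256284 was called without TNFalpha against input alone, with a score of 69.3.

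**Figure D2:**
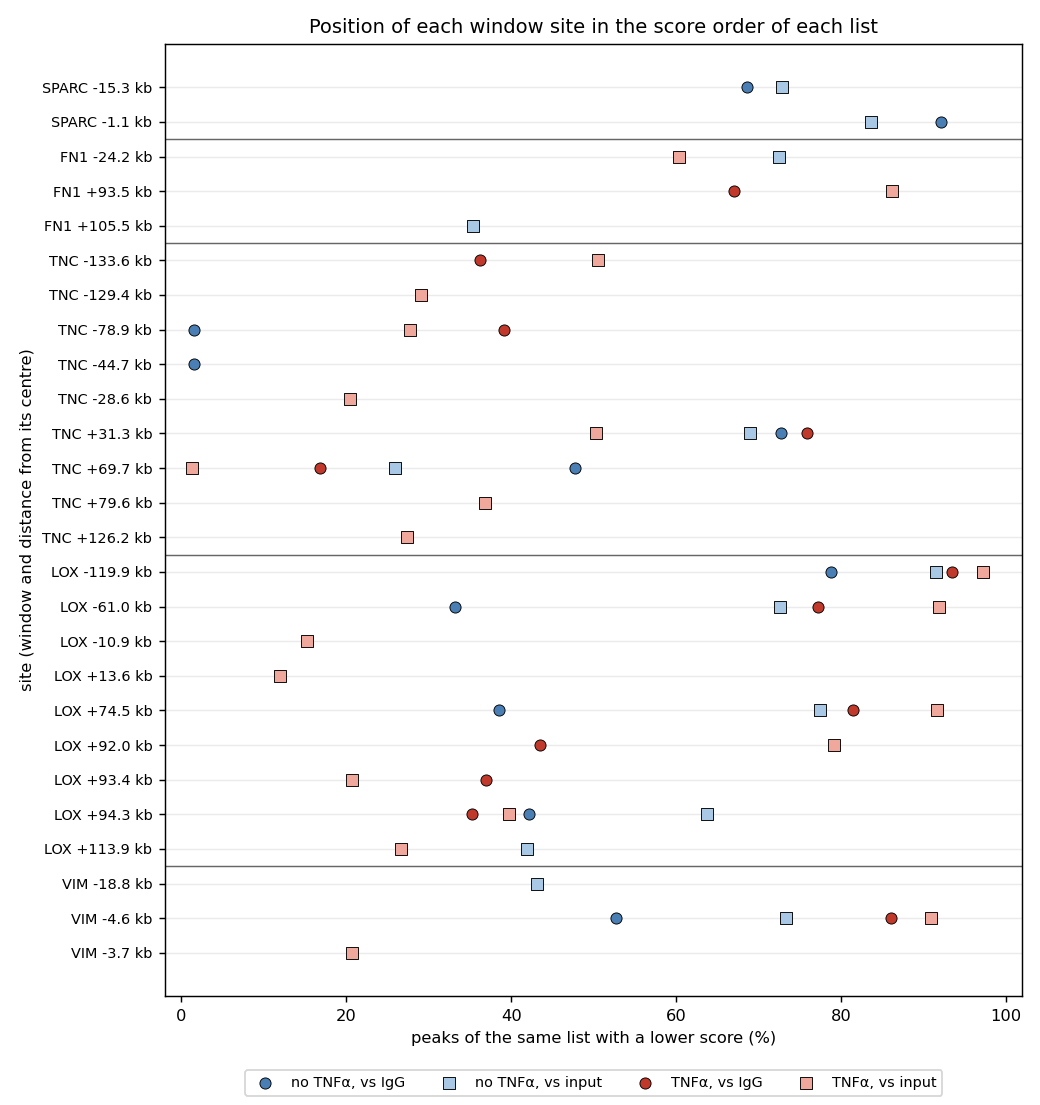
For each of the 26 window sites, the percentage of peaks of the same list that scored lower, with a colour for the library and a shape for the control. The lists differ in length, so positions describe each list by itself, and both SPARC sites stand at 68.6% or higher in the lists that call them, while most TNC sites stand in the left part of the plot.

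Ranks in lists of different length cannot be compared, so sites were also ranked over one common set. Both-control peaks of the 2 libraries that were each other's largest overlap formed 2049 paired sites, and 7 of these lay in the windows: 4 of LOX, 2 of TNC and 1 of VIM. Ranking used the IgG-controlled score of each library. The VIM site ranked 1296 without TNFalpha and 491 with it, and its place was thus 39.3% of the set higher with TNFalpha. Of all paired sites, 90.1% had a smaller shift toward higher ranks with TNFalpha. By input-controlled scores the ranks were 1308 and 509.

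Of the 4 LOX sites, 3 ranked higher with TNFalpha. The site from 121499242 ranked 1553 without TNFalpha and 629 with it, that from 121363811 ranked 1648 and 747, and that from 121304810 ranked 660 and 252. The shares of paired sites with a smaller shift were 92.4%, 92.1% and 76.9%. The site from 121519174, which with TNFalpha had the 2 further peaks beside it, ranked 1497 without TNFalpha and 1653 with it. By input-controlled scores these 4 sites moved in the same directions.

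Neither TNC site ranked higher with TNFalpha by both scores. The site from 117880995 ranked 820 without TNFalpha and 790 with it by IgG-controlled scores, and 1441 and 1733 by input-controlled scores, so its direction depended on the control. The site from 117919510 ranked 1397 without TNFalpha and 1891 with it by IgG-controlled scores, and 1985 and 2046 by input-controlled scores. Shifts of the size of the TNC ones were common among the paired sites, whose median shift in either direction was 18.2% of the set (upper quartile 33.7%). Above that quartile were the VIM shift (39.3%) and those of the LOX sites from 121363811 (44.0%) and 121499242 (45.1%). None of the shifts at the window sites has a replicate check. Since the same reads lie behind both lists of a library, agreement between the controls is not independent support.

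**Figure D3:**
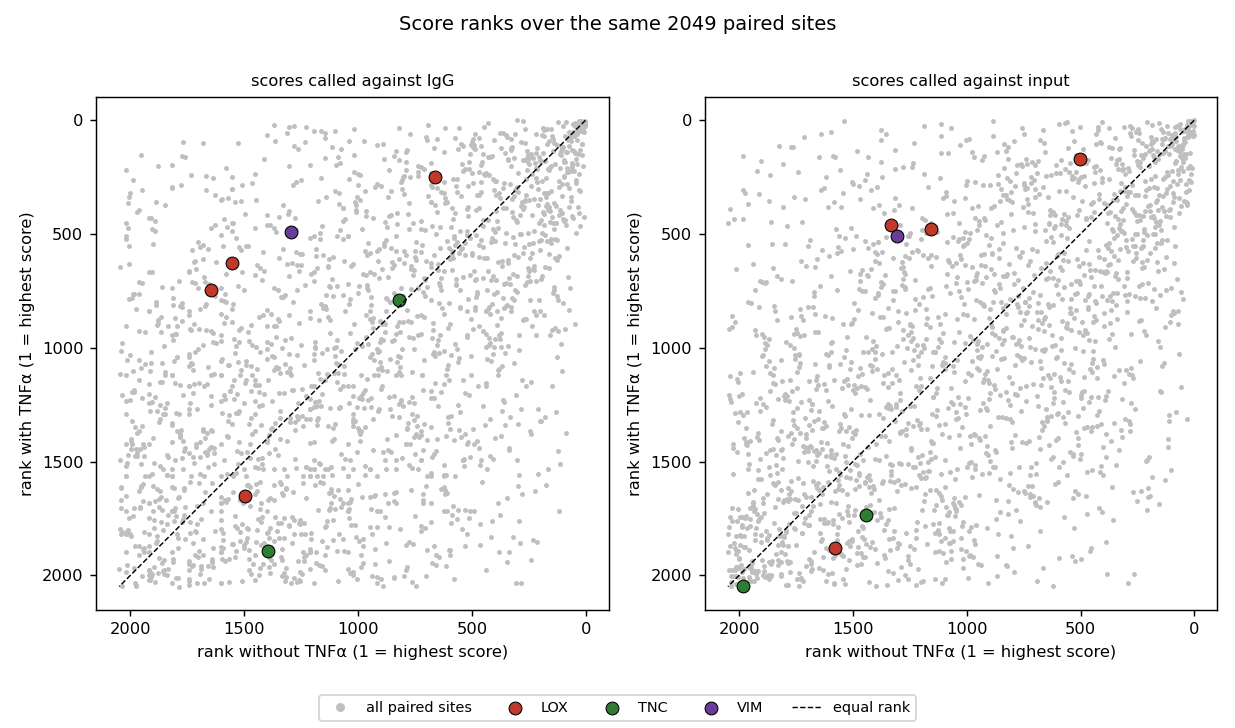
Rank of each of the 2049 paired sites without TNFalpha (x axis) and with TNFalpha (y axis), 1 being the highest score, for IgG-controlled scores on the left and input-controlled scores on the right. The VIM site and 3 of the 4 LOX sites lie above the dashed line of equal rank in both panels, that is, ranked higher with TNFalpha, among many other sites that do so.

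At 4 of the 7 paired window sites the peak was wider with TNFalpha. The LOX peak from 121499242 was 347 bp wide without TNFalpha and 729 bp with it, a ratio of 2.10, and 96.7% of paired sites had a lower ratio. The VIM ratio was 1.67 and that of the LOX peak from 121363811 (455 and 704 bp) was 1.55, with 91.0% and 86.8% of sites lower. The median ratio over all paired sites was 1.10 (interquartile range 0.919 to 1.34), and 64.0% of them were wider with TNFalpha, so a wider peak with TNFalpha was the common case. The strongest LOX site, in contrast, was 553 bp wide without TNFalpha and 490 bp with it, although it ranked higher with TNFalpha. The TNC peak from 117880995 was 491 bp wide without TNFalpha and 363 bp with it, a ratio of 0.739, which only 7.52% of paired sites fell below. Each of the both-control peaks in the windows had the same start and end in its IgG-controlled and its input-controlled list, as did all 3086 and 4159 both-control peaks, so widths from the 2 lists are 1 measurement.

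**Figure D4:**
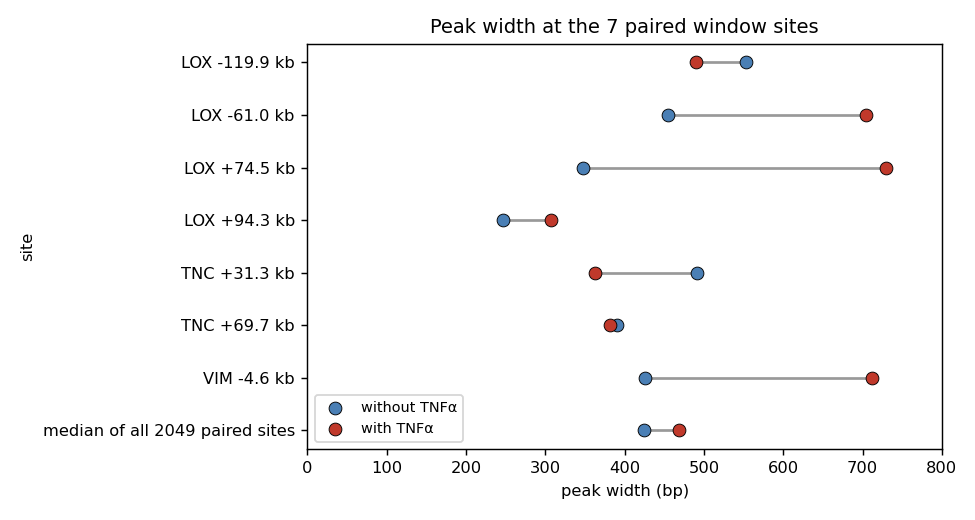
Width in bp of the peaks at the 7 paired window sites without TNFalpha (blue) and with TNFalpha (red), with the medians of all 2049 paired sites (424 and 469 bp) in the last row. The VIM site and 2 LOX sites are widest with TNFalpha, at 704 to 729 bp, and the TNC site at +31.3 kb is narrower with TNFalpha.

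Over all 26 sites, 10 were called in both libraries, 11 only with TNFalpha and 5 only without it. This is 42.3% only with TNFalpha and 19.2% only without it, and over all 12091 sites the shares were 33.5% and 31.8%. Of the window sites, 7 were called in all 4 lists (26.9%, against 16.9% of all sites): 4 of LOX, 2 of TNC and 1 of VIM. A further 10 were called in 1 list (38.5%, against 47.8% of all sites), and 9 of these were input-controlled calls, 7 with TNFalpha and 2 without it. No SPARC or FN1 site was called in both libraries against IgG.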

How the data were processed

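c-Jun ChIP-seq peaks of BT549 cells without and with TNFalpha were analysed from 4 peak lists of 2 libraries. The submitters' processing notes name CASAVA 1.8, Bowtie 0.12.9 and the build hg19. The deposited lists hold 5 columns with no header. Their peak names begin with MACS, version and threshold not given in the sources used here. The score in the last column was made by the authors' peak caller on an unstated scale, so a score served to rank or filter peaks inside its own list alone. The lists without TNFalpha held 3323 peaks (IgG) and 7919 peaks (input), and those with TNFalpha 4439 and 8040. Each list came from 1 c-Jun library, and read depth is unknown.

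Starts were raised by 1 to 1-based positions. Peaks, classes and pairs were defined as stated in the results, with a minimum overlap of 1 bp, in Python 3.11.15 (scipy 1.17.1, pandas 2.3.3, numpy 2.4.6; plots with matplotlib 3.10.9). Overlap counts were checked against bedtools 2.31.1 (0 of 24 differed) and tested on simulated data. All both-control peaks of the windows are reported, in full the highest scoring one of each library and window and those found in 1 library, and peaks of 1 list by counts and examples. Windows, genes and comparisons were chosen with earlier results of these data known. Positions against genes, motifs in peaks and other matrix genes were not analysed here, because no hg19 genome or annotation was used. Promoters and gene names came from RefSeq on GRCh38.p14.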

Additional observations from a re-analysis of the deposited data

How the results depend on the processing

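No paired analysis was possible because there was a single library per condition, and none could be left out. The SPARC result (2 peaks found only without TNFalpha) was the same under all 9 alternatives, which could not have changed it. The nearest peak with TNFalpha lay 197 kb from the stronger SPARC peak and 211 kb from the weaker one, beyond the reach of any overlap rule used. Both peaks also scored above the median of their list and lay near the centre of the window. This agreement is therefore no test of the result. The main values were 12 window peaks with TNFalpha and 9 without it, and 33.3% and 22.2% of these found in 1 library. With input-controlled lists alone, 21 peaks with TNFalpha lay in the windows. Keeping only scores at or above the median of the IgG-controlled list left 6 and 5, as such a filter must. Widening each window by 100 kb gave 23 and 14 peaks, among them 2 with TNFalpha and 1 without it near THBS1, and 1 in each library near COL1A2. The central 50% of each window held 4 peaks with TNFalpha, 0% of them found only there, so the 4 both-control peaks found only with TNFalpha lay in the outer parts of their windows. Elsewhere the share found only with TNFalpha was 16.7 to 57.1%, and that found only without it 14.3 to 40.0%. Both ranges lay inside the 95% intervals of the main shares. Those intervals are wide and cover counting error, not changes of processing, so this does not show that the shares were stable. The shares over all peaks ranged too, from 25.2 to 50.5% with TNFalpha and from 8.59 to 47.8% without it. With input-controlled lists alone the window shares were 57.1% and 30.8%, and those over all peaks 49.1% and 47.8%. The median rank shift of the window sites, 19.9% of paired sites, was 16.2% by input-controlled scores and 12.6% over 6 sites when pairs needed a reciprocal overlap of 50%, which the LOX site from 121499242 did not reach. The TNC site from 117880995 was the 1 site that changed direction, from 1.46% to -14.3% by input-controlled scores. The cause was not tested. Motifs in peaks and gene positions of peaks were not analysed here.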
